A study of Mus musculus with 38 samples.

Results

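A set of 8 genes of the myelin sheath and of the cells that make it were followed through the mouse Trim28 data: Mbp, Mog, Mag, Mobp, Cnp, Opalin, Ermn and Aspa. They were chosen by name, as 8 of the 55298 genes in the count table. They were read in whole cortex RNA of 6 animals, in single nuclei of 4 of those animals, and in RNA of 18 libraries of sorted adult nuclei. In the sorted libraries their level was taken as a measure of leftover oligodendrocyte RNA, but the cells it came from were not tested.

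Trim28 is a corepressor that recruits silencing machinery to endogenous retroviruses. In the Emx animals, aged 3 months, a floxed Trim28 allele met Emx1-Cre, which acts in cortical progenitors and so reaches excitatory neurons, astrocytes and part of the oligodendrocytes, but not the interneurons that migrate in. The 3 Emx KO animals had lost both alleles, and the 3 controls (Emx1-Cre +/-; Trim28-fl +/-) carried 1 excised allele too. In the Cas and StopCas animals an AAV5 vector with gRNAs was used, aimed at lacZ or at Trim28 (exons 3, 4 and 13, singly or all together), which also gave H2B-RFP, under the synapsin promoter in the Cas animals and dependent on Cre in the StopCas animals. It was injected into the striatum, and RFP+ nuclei were sorted 2 months later (4 Trim28 and 1 lacZ library in each set). Cas9-GFP was present in all cells of the Cas animals and only after synapsin-driven Cre in the StopCas animals. The Flox animals were Trim28-fl +/- or +/+ by the paper, which names the +/+ animals KO. The sample labels do not give the genotype of each library. In these animals AAV gave Cre and nuclear GFP under the synapsin promoter. Their GFP+ nuclei were sorted 2 months later (4 libraries labelled KO and 4 labelled control). Neural progenitor cultures (6 Trim28-KO, 2 lacZ) served as a description only. They came from Cas9-GFP mice and got lentiviral gRNAs for Trim28 exon 3, 4 or 13, or for lacZ. Their RFP+ cells were sorted 10 days after transduction.

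Each adult library held 8790346 to 25345083 counts. Levels are in CPM, a gene's counts scaled to a common library total after TMM normalisation. Trim28 itself was 8.36, 11.8 and 11.4 CPM in Emx KO cortex against 29.8, 26 and 30.7 in control (log2 fold change -1.39, adjusted p = 3.8e-04, edgeR quasi-likelihood test). In the Flox set it went against the labels: 117 to 132 CPM in the libraries labelled KO and 23.0 to 29.1 in those labelled control, so these groups are named here by their labels only. In the Cas set it was 83.6 to 93.8 CPM with Trim28 guides and 125 with lacZ, and in the StopCas set 80.0 to 114 and 95. The library Emx KO-76 stood apart, with 39.9% of its counts in its 10 most abundant genes (13.1 to 16.2% in the other cortex libraries) and 14.1% in the predicted gene Gm42418 alone. Each cortex result is therefore also given without it where that changes a call.

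Myelin is a spiral of oligodendrocyte membrane around axons. Mbp, myelin basic protein, zips the cytoplasmic faces of the membrane together, and Mobp is a second small basic protein of compact myelin. Mog and Mag are immunoglobulin-family proteins at the outer and the inner, axon-facing surface. Cnp is an enzyme of the non-compact cytoplasmic channels, Opalin a membrane protein and Ermn a cytoskeletal protein of mature oligodendrocytes, and Aspa cleaves N-acetylaspartate, which neurons supply, to acetate used for lipid synthesis. Oligodendrocytes mature from progenitors marked by Pdgfra, and the factors Sox10 and Myrf switch the myelin genes on together. The Mbp locus also holds an upstream start that gives the golli proteins, which are made in some neurons, and the gene counts used here do not separate them from the classic forms.

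The sequences before the start sites are shown for 4 members because Myrf and Sox factors are known to act on myelin genes. These 4 hold letters that were searched for, as do Aspa and Opalin, which are not printed. RefSeq (GRCm38.p6) entries matched 7 of the 8 genes. Capitals mark CTGGCAC or CTGGTAC, called Myrf-type here, and ACAAAG or AACAAT, called Sox-type, each searched on both strands in the 250 bases before the start and written 5′ to 3′ on the gene's strand.
Mog (chr17:37023399-37023648, minus strand): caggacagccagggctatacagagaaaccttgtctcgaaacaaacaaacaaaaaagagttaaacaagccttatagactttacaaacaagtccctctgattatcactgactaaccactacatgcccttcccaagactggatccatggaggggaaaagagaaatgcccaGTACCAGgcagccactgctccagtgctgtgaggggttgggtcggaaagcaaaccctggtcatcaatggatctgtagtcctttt
Mag (chr7:30914864-30915113, minus strand): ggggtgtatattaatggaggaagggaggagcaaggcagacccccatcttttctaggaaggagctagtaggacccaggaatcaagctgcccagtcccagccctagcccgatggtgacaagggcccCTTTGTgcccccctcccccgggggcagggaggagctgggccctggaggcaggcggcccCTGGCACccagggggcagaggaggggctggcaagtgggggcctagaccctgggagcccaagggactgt
Cnp (chr11:100574689-100574938, plus strand): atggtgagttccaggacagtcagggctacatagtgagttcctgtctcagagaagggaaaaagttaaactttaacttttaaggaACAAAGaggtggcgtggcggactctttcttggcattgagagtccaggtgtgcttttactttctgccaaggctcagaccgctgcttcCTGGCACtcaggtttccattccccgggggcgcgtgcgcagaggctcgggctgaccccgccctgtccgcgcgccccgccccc
Mobp (chr9:120149492-120149741, plus strand): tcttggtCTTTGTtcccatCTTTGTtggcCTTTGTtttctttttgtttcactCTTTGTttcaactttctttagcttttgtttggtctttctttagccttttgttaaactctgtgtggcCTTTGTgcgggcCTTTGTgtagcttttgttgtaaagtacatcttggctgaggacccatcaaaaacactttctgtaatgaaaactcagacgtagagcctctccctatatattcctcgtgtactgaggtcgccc
The Myrf-type letters stood in Mog, Mag and Cnp, 83, 68 and 81 bases before the start, while 5.93% of all 32851 promoters of the same length hold them. Mag had further start entries, 1 with the match 9 bases before the start and 1 with no match of either type. Counted by entry, 4 of 9 member promoters held Myrf-type letters and 6 of 9 held Sox-type letters. The Sox-type letters stood in Aspa, Cnp, Mag, Mobp and Opalin against 24% of all promoters, and Mobp alone had 6 matches. These are matches of letters, not measured sites.

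In cortex, all 8 members were lower on average in Emx KO than in control, by 6.92 to 29.5%, but none passed the test. A gene counted as called when its adjusted p was under 0.05 and its log2 fold change exceeded 0.5 up or down, and 216 of 16271 genes met it (1.33%). The median log2 fold change was -0.24 over the members and 0.01 over all genes tested. In whole-tissue RNA, fewer oligodendrocytes and less RNA per oligodendrocyte cannot be told apart.

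Per kilobase of exon, the control levels ran from Mobp (102 CPM per kb) and Mbp (88.3) through Cnp (50.5) and Mog (47.8), Ermn (22.5) and Mag (18.9) to Opalin (10.1) and Aspa (4.76). Transcripts for the compact myelin proteins Mobp and Mbp thus stood at the top of this order of RNA. It divides by all annotated exonic bases of a gene (6849 for Mobp, 8403 for Mbp), not by the length of the transcripts present. Control libraries differed little among themselves, with Mog at 80.8, 81.4 and 82.0 CPM.

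Aspa, the N-acetylaspartate enzyme, was 20.9, 18.6 and 17.8 CPM in KO and 26.2, 29.0 and 29.9 in control. Its log2 fold change was -0.50 ± 0.12 (SE, n = 3 and 3, adjusted p = 0.0607, edgeR). The groups did not overlap. Ermn was 66.4, 48.7 and 50.8 CPM in KO and 77.1, 87.6 and 80.4 in control, a log2 fold change of -0.50 ± 0.12 (adjusted p = 0.0791, edgeR). Here too every KO library lay below every control library. Mobp was 554, 529 and 469 CPM in KO and 710, 734 and 644 in control (-0.37 ± 0.09, adjusted p = 0.103, edgeR), and Mog 60.2, 67.0 and 67.4 in KO (-0.26 ± 0.09, adjusted p = 0.336, edgeR). These 4 members made up all whose KO libraries lay wholly below the controls, which 10.8% of all genes tested also did. The same 4 had an unadjusted p under 0.05 and a lower level in KO, as had 4.57% of genes.

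The other 4 overlapped between the groups. Mbp was 506, 665 and 721 CPM in KO and 769, 751 and 707 in control (-0.16 ± 0.13, adjusted p = 0.886, edgeR). Mag was 52.5, 59.7 and 75.9 CPM in KO and 79.8, 80.3 and 70.9 in control. Cnp had a log2 fold change of -0.10 and Opalin of -0.18. KO-60 was the lowest KO library for Mbp, Mag, Mog, Cnp and Opalin but the highest for Mobp, Ermn and Aspa, so the members did not fall together animal by animal.

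**Figure D1:**
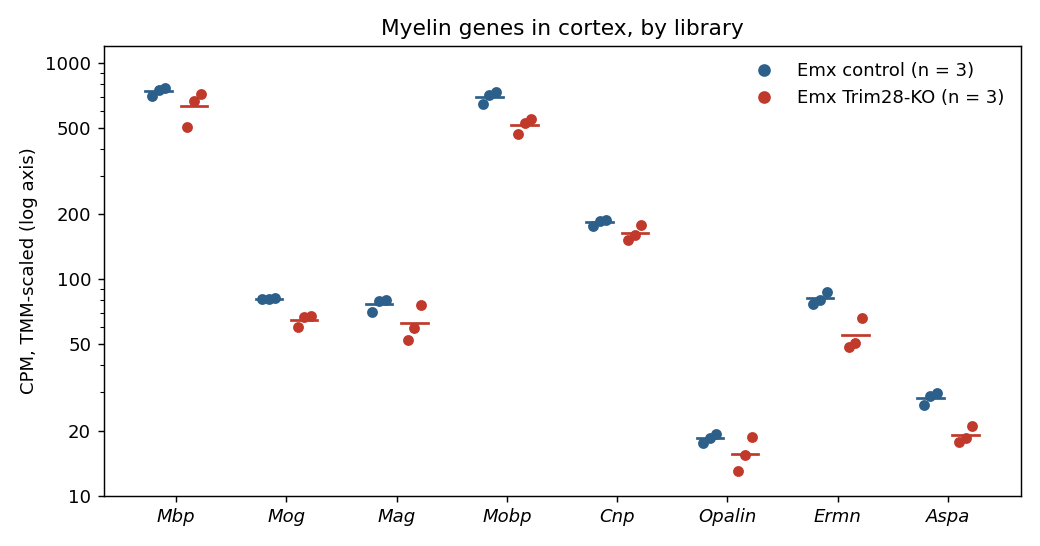
TMM-scaled CPM (log axis) of the 8 myelin genes in each cortex library, with blue points for 3 Emx controls, red points for 3 Emx KO animals and bars for group means. The red bars lie below the blue ones for all 8 genes, and the points of Mog, Mobp, Ermn and Aspa do not overlap.

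The call on Aspa turned on the test, and that on Ermn and Aspa on 1 library. With DESeq2 the adjusted p was 0.0272 for Mobp, 0.0225 for Ermn and 0.0396 for Aspa, of which Aspa alone also passed the fold limit. Without KO-60 both Ermn (-0.63, adjusted p = 0.0107, edgeR) and Aspa (-0.56, adjusted p = 0.0402, edgeR) were called, and without KO-76 no member was. Summed over the 8 genes, KO libraries held 74.6, 81.9 and 83.7% of the control mean.

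Of 34 other myelin and mature oligodendrocyte genes tested, 28 were below 0 and none was called (median -0.23). Mal, a myelin membrane protein, was 184 CPM in KO and 253 in control (-0.40, adjusted p = 0.113, edgeR). The 14 genes of progenitors and newly formed oligodendrocytes had a median of -0.07, with 8 below 0. None of 12 cholesterol synthesis genes, whose product myelin needs in bulk, was below 0 (median 0.21) and none was called. Marker lists of other cells moved as well: 7 of 7 meningeal fibroblast genes and 8 of 8 endothelial and mural genes were below 0, with Slc47a1 (-3.02) and Col1a2 (-1.08) called lower. What part the tissue taken had in the members' levels was not tested.

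Over the 6 cortex libraries, the genes whose log2 CPM most resembled the members' mean were Btd (Pearson r = 0.995), Gm33366 (0.990), Strada (0.985), Gm15441 (0.980) and Ntsr1 (0.978). With 6 libraries 130 of 14815 genes exceeded 0.9, and the libraries share their depth and group.

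The nuclei showed which cells held these transcripts. Of 14296 barcodes 13671 were kept, and 36 sequences occurred in more than 1 library, 1 of them among kept oligodendrocytes. Clustering was done without the 7 members that were among the variable genes. One cluster of 1309 nuclei had all 4 fixed oligodendrocyte markers (Mog, Mag, St18, Prr5l) high. Since Mog and Mag name it, the members' presence there is a description. Clustering with the members kept gave the same class but for 1 nucleus.

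Oligodendrocytes made up 16.7% (95% interval, exact binomial, 15.5 to 18) and 11.2% (10.1 to 12.4) of nuclei in control-64 and control-65, and 6.46% (5.68 to 7.31) and 4.57% (3.91 to 5.30) in KO-60 and KO-73. Both KO animals lay below both controls. With 2 animals against 2, an exact permutation test cannot go below p = 0.333. The intervals cover counting error only, and nuclei were sorted before loading. The filter on detected genes removed mostly nuclei of the KO animals from this class: without it their shares were 7.42 and 6.56%, and those of the controls 16.3 and 11.2%.

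Within that class Mbp gave 10.3 UMIs per nucleus and was seen in 99.7% of nuclei, Mog 4.18 (95.2%), Mag 3.78 (95.8%) and Aspa 3.19 (89.2%). Mobp was at 2.79 UMIs (85.3%), Opalin at 1.36 (63.6%), Ermn at 0.78 (50.4%) and Cnp at 0.69 (44.2%). At a median of 2363 UMIs, a nucleus showed 6 of the 8 genes, 99.2% of nuclei showed at least 4, and 138 (10.5%) showed all 8. No oligodendrocyte nucleus was without a member UMI.

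Relative to all UMIs of the oligodendrocyte class, the members other than Cnp did not pass the test between KO and control. UMIs were summed per animal and given as CPM of the class, without TMM scaling, and 233 of 8047 genes were called at an adjusted p under 0.05 (2.9%). Mbp was 4334 and 4642 CPM in KO and 3810 and 3926 in control (log2 fold change 0.20 ± 0.12, adjusted p = 0.555, edgeR). Counted per nucleus Mbp overlapped, at 9.68 and 12.4 UMIs in KO-60 and KO-73 and 9.93 and 10.2 in control-64 and control-65. Mog overlapped between the groups, at 1534 and 1789 CPM in KO and 1823 and 1342 in control. Opalin was the only member below 0, at 494 and 474 in KO and 575 and 522 in control (-0.20 ± 0.16, adjusted p = 0.728, edgeR). These directions depended on how the class was set: with at least 2 UMIs of St18 and Prr5l, 7 members were below 0 (-0.11 for Mbp to -0.59 for Opalin) and Cnp alone above it. Counts of this design were also simulated with 1 preset spread for every gene, not the spread of these data. There 18% of genes changed by 1 on the log2 scale were recovered and 89% of those changed by 2. The members had standard errors of 0.12 to 0.20 in the real fit, so those shares do not give the reach for them.

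Cnp was the exception. It was 423 and 357 CPM in KO and 241 and 184 in control (0.85 ± 0.19, adjusted p = 0.0142, edgeR). The groups did not overlap, as for Mbp and Opalin, and the share of all genes without overlap was not counted. With 2 animals against 2 an exact permutation test cannot go below p = 0.333, so no conclusion is drawn from this separation. The call was lost with DESeq2 (adjusted p = 0.102), without KO-60 (adjusted p = 0.235), without KO-73 (adjusted p = 0.0885) and when the class was set by at least 2 UMIs of St18 and Prr5l (0.50, adjusted p = 0.256). The same nuclei had higher Cryab, a small heat-shock protein of oligodendrocytes (1.41, adjusted p = 4.6e-05), and Tspan2, a myelin tetraspanin (0.63, adjusted p = 0.0191), the 2 called among 33 other myelin genes (both edgeR). Of 7 genes of progenitors and newly formed oligodendrocytes tested there, 1 was called in each direction. Enpp6, a mark of newly formed cells, was 53.8 and 45.8 CPM in KO and 149 and 122 in control (-1.46, adjusted p = 0.0021, edgeR). Sox6, a factor of progenitors, was 49.97 and 43.5 CPM in KO and 5.39 and 6.76 in control, on 6 to 26 UMIs an animal (2.93, adjusted p = 3.9e-04, edgeR).

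**Figure D2:**
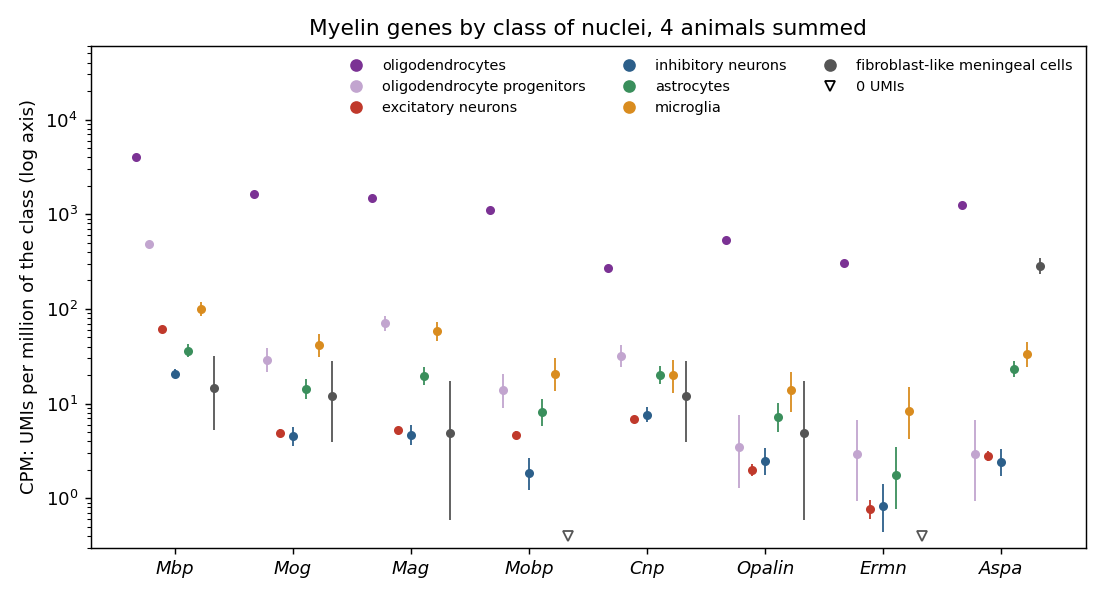
CPM (log axis) of each myelin gene in 7 classes of nuclei, 4 animals summed, with exact Poisson 95% intervals and open triangles for 0 UMIs. Oligodendrocytes are highest for all 8 genes, and the meningeal class stands out for Aspa.

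Outside oligodendrocytes most members were at a low level. Microglia held 1.88 to 3.91% of the oligodendrocyte level for 7 members and 7.38% for Cnp. Inhibitory neurons held 0.17 to 0.51% for 7 members and 2.83% for Cnp. Free RNA and mixed droplets can give such a level, and their part was not tested. Cnp was the least confined member: 37.9 to 56.6% of its UMIs in a library lay in oligodendrocytes, against 78.9 to 92.2% for the members other than Cnp and Mbp.

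In excitatory neurons Mbp stood at 1.51% of its oligodendrocyte level, Cnp at 2.57% and the other members at 0.22 to 0.42%. That share of Mbp was below its share in microglia (2.49%) and in progenitors (11.9%), but it differed between KO and control. Mbp was 85.3 and 75.1 CPM in KO-60 and KO-73 and 30.6 and 46.2 in control-64 and control-65. The KO animals lay above both controls (log2 fold change 1.01 ± 0.20, n = 2 and 2, adjusted p = 0.033, edgeR; 1.7e-05 with DESeq2), where 1147 of 16253 genes (7.06%) were called. Mbp UMIs were seen in 48.7 and 47.4% of KO excitatory nuclei and in 21.7 and 32.1% of control ones. The call was lost without control-64 (0.73, adjusted p = 0.0544) and without control-65 (1.37, adjusted p = 0.0888, edgeR).

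The other members did not follow Mbp there. Mag was 4.38 and 3.25 CPM in KO and 8.30 and 5.51 in control (-0.90, adjusted p = 0.0763, edgeR). Mobp (-0.81, adjusted p = 0.0775) and Opalin (-1.34, adjusted p = 0.0628, both edgeR) were also lower in KO without being called, and DESeq2 called Mag and Opalin lower. Of 32 other myelin genes tested in these nuclei 27 were below 0, 2 were called lower and none higher. For each Mog UMI, excitatory nuclei held 3.59 Mbp UMIs in control-64, 14.9 in control-65, 17.5 in KO-60 and 22.1 in KO-73, and oligodendrocytes 2.09 to 2.93. The animals thus differed widely in this ratio, and control-64 lay far below the other 3. Over all 4 animals it was 12.5 in excitatory neurons, 4.59 in inhibitory neurons, 16.6 in progenitors, 2.52 in astrocytes and 2.43 in microglia. The part of stray RNA was not tested.

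The 4 excitatory clusters with enough nuclei were fitted alone, a choice made after seeing the class. Mbp was higher in KO in cluster 1, led by Otof and Cux2 (1.25, adjusted p = 0.0115), in cluster 5, led by Hs3st4 and Syt6 (1.48, adjusted p = 0.0179), and in cluster 9 (0.70, adjusted p = 0.0409, edgeR). In cluster 0, the most numerous, the value was 0.71 (adjusted p = 0.0695, edgeR), with 81.6 and 60.7 CPM in KO and 32.9 and 51.2 in control. Cluster 10, led by Vwc2l and Slc17a8, was not fitted and overlapped, with 32.0 and 37.4 CPM in KO and 42.9 and 29.7 in control. Cluster 12 had no nuclei of control-64 and was not fitted either, and there Mbp was at 18.6 and 73.1 CPM in KO (6 and 56 nuclei) and at 152 in control-65 (16 nuclei).

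Inhibitory neurons, which Emx1-Cre does not reach, showed no such rise. Their Mbp was 16.0 and 18.6 CPM in KO and 24.0 and 25.2 in control (-0.52 ± 0.20, adjusted p = 0.30, edgeR). The KO effect on Mbp differed between the 2 kinds of neuron by 1.51 ± 0.21 on the log2 scale (adjusted p = 0.0041, edgeR with the animal as block), a difference that 264 of 16078 genes also passed. Thinned to 1000 UMIs a nucleus, 5.58% of excitatory and 1.88% of inhibitory nuclei still had an Mbp UMI, against 38.9 and 12.9% before at medians of 11023 and 8325 UMIs. These shares pool KO and control animals. By animal the thinned excitatory shares were 7.36 and 6.84% in KO-60 and KO-73, and 2.69 and 4.51% in control-64 and control-65. The inhibitory ones were 1.32, 1.58, 2.45 and 2.36% in the same order, so the 2 classes were nearly equal in control-64. Which Mbp transcripts carried these UMIs was not tested.

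**Figure D3:**
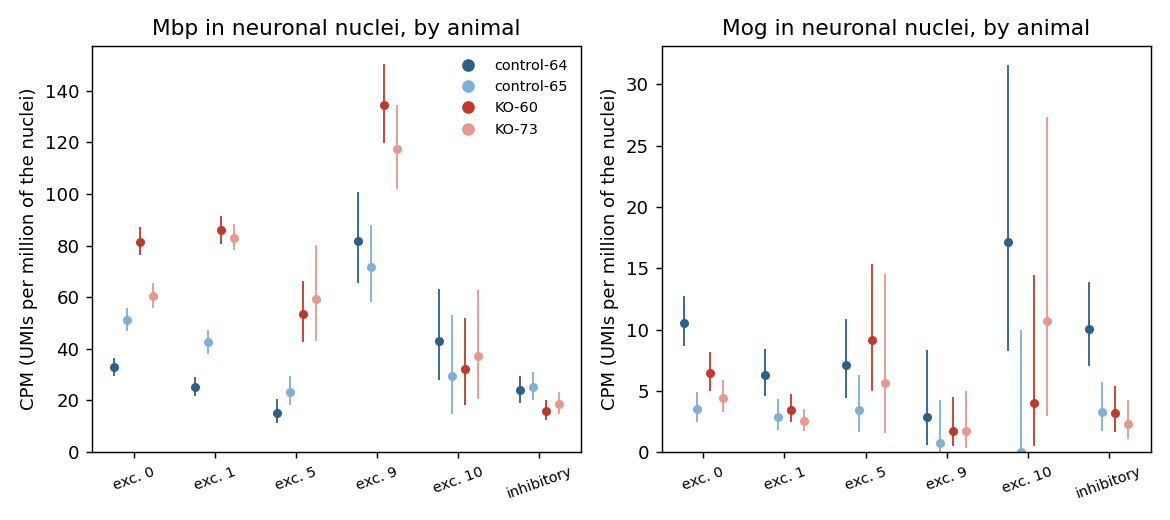
CPM of Mbp (left) and Mog (right) in 5 excitatory clusters and in inhibitory neurons, 1 point per animal with exact Poisson 95% intervals. In clusters 0, 1, 5 and 9 both KO animals (red tones) lie above both controls (blue tones) for Mbp, whereas Mog shows no such split.

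Of all Mbp UMIs of the KO libraries, 47.1 and 46.1% lay in oligodendrocytes, against 83.6 and 71.2% in the controls. For Mog these shares were 81.8 and 83.9% in KO and 90.2 and 92.2% in control. Over all nuclei Mbp was 145 and 133 CPM in KO and 228 and 168 in control, and Mog 29.7 and 28.1 in KO and 101 and 44.4 in control.

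In the remaining classes only members with enough UMIs were tested, 4 of 8 in microglia, 5 in inhibitory neurons, 7 in astrocytes and 3 in progenitors, and edgeR called none of them. In microglia 0 of 6087 genes were called (0%), with 426 at an unadjusted p under 0.05 and 1 called by DESeq2. In inhibitory neurons 0 of 12769 were (0%), with 1825 at an unadjusted p under 0.05 and 17 called by DESeq2. In astrocytes 215 of 10297 were called (2.09%) and in progenitors 28 of 6698 (0.418%). The meningeal class was not fitted. In the progenitor class, 24 of 453 nuclei held 785 of the 830 Mbp UMIs (94.6%). They were chosen by having at least 5 Mbp UMIs, and came from all 4 animals (8, 3, 4 and 9 from control-64, control-65, KO-60 and KO-73). In these nuclei Mbp was 5178 CPM and Mag 673, Enpp6 was 831 and the progenitor marker Pdgfra 6.6, against 16.5 and 1076 in the other progenitors. Opalin and Aspa were at 0 in them.

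Aspa had a second place of expression. In the 128 fibroblast-like meningeal nuclei it reached 285 CPM and 46.1% of nuclei, with 118 UMIs, while the other 7 members together gave 20 and Mobp and Ermn none. That was 22.7% of its level in oligodendrocytes.

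The members were far lower in sorted neuronal nuclei than in whole cortex. In the Flox libraries labelled control, 8 of 8 were called lower than in Emx control cortex, against 39.1% of all 18471 genes. Region, whole tissue against nuclei, sort, vector and mouse line differ together here and cannot be told apart. Mobp had a log2 fold change of -5.71 ± 0.49, Mog -5.68 ± 0.14 and Ermn -5.40 ± 0.28, while Aspa (-4.47), Opalin (-4.35), Mag (-3.78) and Mbp (-3.54) fell less and Cnp least (-0.84 ± 0.11). The libraries labelled KO gave 8 of 8 as well, with -1.12 to -6.32. Microglia (10 of 10) and endothelial and mural markers (8 of 8) were lower too, and 8 of 8 striatal projection neuron genes were higher.

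What was left differed between members. In the 8 Flox libraries Mog stood at 1.39 to 3.05% of the cortex control mean and Mobp at 0.60 to 3.76%, with a median of 1.02%. Mbp stood at 6.02 to 9.54%, so the ratio of Mbp to Mog was 18 to 50.9 there and 8.41 to 10.7 in cortex. The value read as purity thus depends on the member, and Mog, Mobp and Ermn gave the lowest remainders.

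Cnp stood at 39.3 to 56.0% and is uncertain as a measure of purity. Its 3639 exonic bases share 154 with Dnajc7 on the opposite strand, which was at 533 to 719 CPM in Flox libraries and 307 to 389 in cortex. The counts of TEtranscripts gave 77.1 to 84.9% of the unique-read Cnp count in cortex but 7.92 to 19.3% in Flox, 24.5 to 38.5% in Cas and 14.1 to 22.5% in StopCas libraries, whereas Mbp kept 99.6 to 103% in all sets. By that counting, on the same TMM scale, Cnp was 5.42 to 18.6% of the cortex control mean in sorted libraries. The cause was not tested.

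**Figure D4:**
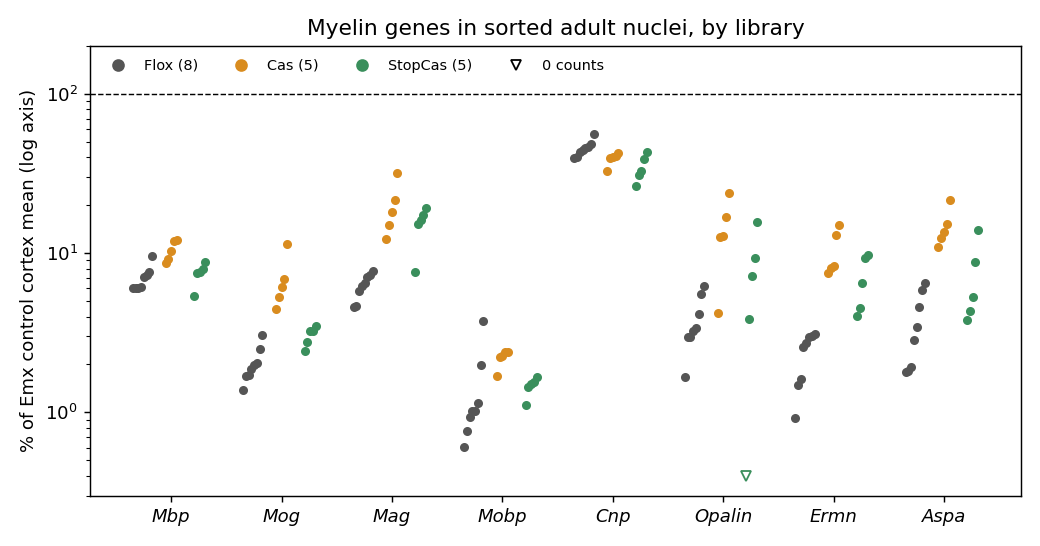
Level of each myelin gene in the sorted adult libraries as a percentage of the Emx control cortex mean (dashed line, log axis), 1 point per library, with an open triangle for 0 counts. By the median of each set Cnp is highest and Mobp lowest in all 3, and Cas points tend to lie above StopCas points.

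Cas libraries held more myelin RNA than StopCas libraries on average for all 8 genes, but no member was called, where 159 of 18513 genes (0.859%) were called higher. Mog was 9.32, 3.63, 5.64, 4.35 and 4.98 CPM in Cas (the last with lacZ) and 1.98, 2.65, 2.26, 2.83 and 2.65 in StopCas (1.16 ± 0.33, adjusted p = 0.061, edgeR). Those groups did not overlap, nor did those of Mobp. The share of all genes without overlap was not counted, so no conclusion is drawn from this separation. Mobp (0.58, adjusted p = 0.0897) and Mbp (0.48, adjusted p = 0.065, edgeR) came next. An unadjusted p under 0.05 was found for 5 members and for 3197 of the 18513 genes (17.3%). DESeq2 called Mog (adjusted p = 0.0215) and Mobp (adjusted p = 0.042). All 10 microglial markers were above 0 (median 1.02), with Csf1r called (0.96).

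Within each sorted set no member was called between Trim28 and control libraries. In the Flox set 7 of 17102 genes were (0.0409%), and the members lay between -0.54 and 0.48 for labelled KO against labelled control, with all 8 overlapping. In the Cas set (4 libraries against 1) no gene of 19004 was called (0%), 1560 having an unadjusted p under 0.05, and Opalin was farthest from 0 at 1.94 (2.34 to 4.39 CPM with Trim28 guides, 0.773 with lacZ). In the StopCas set no gene of 18777 was called (0%), 459 having an unadjusted p under 0.05, and Aspa was farthest at -1.33. Simulated counts with 4 libraries against 1, again with 1 preset spread for every gene, gave back 20% of changes of 1 on the log2 scale. At that spread smaller differences would mostly be missed.

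Over the 18 sorted libraries, 7 members followed the mean of the rest with r from 0.54 (Mobp) to 0.90 (Mag), and Cnp did not (-0.23). Among the 5 genes most like the members' mean were Ctss (0.931), Glul (0.903), 1700101I11Rik (0.900) and Mpeg1 (0.899). These libraries share their sets, and Ctss and Mpeg1 are genes of microglia and macrophages.

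In progenitor cultures the members were at most 2.57 CPM, except Cnp at 64.6 to 158 and Aspa at 9.44 to 30.4 CPM.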

How the data were processed

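Reads were aligned by the authors to GRCm38.p6 with STAR 2.6.0, and the deposited bulk tables hold raw read counts per gene from featureCounts (Subread 1.6.3, stranded, GENCODE annotation). The authors also deposited TEtranscripts gene counts, and UMI counts per nucleus from Cell Ranger 3.0.

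From these, edgeR 4.0.16 (TMM, filterByExpr, quasi-likelihood test, Benjamini-Hochberg over all genes tested) compared groups, with DESeq2 1.42.0, RLE factors, no filter, TEtranscripts counts and each library left out as alternatives. Nuclei within 3 median absolute deviations of detected genes were clustered with Seurat 5.3.0 (2000 variable genes, 20 components, resolution 0.1), and UMIs were summed per animal and class. Scrublet marked 193 doublets (1.35%), none in oligodendrocytes, and they were kept. CPM are on TMM scale over 24 adult libraries, and each fit uses its own factors. Methods were tested on simulated data. Named were the 8 members, Trim28, at most 3 called genes of each list and the 5 genes most like the members, of which 1 is not reported here; Mal was named besides. Members and lists were chosen with earlier results of these data known. The CUT&RUN and single-element tables were not used here. Emx and Flox replicates were taken as separate animals by the numbers in their labels, and progenitor replicates are cultures. The labels give no animal for the Cas and StopCas libraries, whose Trim28 libraries each had a different guide or guide set. Injected guides did not pair Cas with StopCas libraries.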

Additional observations from a re-analysis of the deposited data

Results flagged for a closer look

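In a test for 1 library far from the others of its group, 4 of 45 groups were marked, where chance marks about 1 in 20. Mbp was 56.4 CPM in 1 Flox library labelled KO and 44.8 to 45.2 in the other 3. Mobp was 26.1 CPM in 1 Flox library labelled control and 5.33 to 8.02 in the others. Ermn was 12.3 CPM in the Cas library KO-2, which was also highest for Mog, and 6.15 to 6.79 in the others. Cnp was 158 CPM in 1 Trim28-KO progenitor culture and 64.6 to 81.1 in the other 5. The KO effect on Mbp differed between excitatory and inhibitory nuclei by 1.51 on the log2 scale, by the tested interaction given above; this test was added after the data had been seen.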

How the results depend on the processing

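No fold change of a member in cortex, in Cas against StopCas or in Flox labelled control against cortex changed direction under any alternative run. In cortex no member was called as reported, and 1 was with DESeq2 (Aspa) and 2 without a filter on low counts (Ermn, Aspa); leaving out 1 library gave 0 to 2. In Cas against StopCas, DESeq2 called 2 members and TEtranscripts counts 1 (Cnp, 0.97, adjusted p = 0.0198). Injected guides did not pair the libraries (r = -0.12, -0.16, 0.13 and 0.03), and with the guide as replicate block 0 members and 277 genes were called.

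Of the oligodendrocyte results, Cnp alone was called, and 0 members were with DESeq2 or with the class set by St18 and Prr5l; leaving out 1 animal gave 0 to 1. That class definition reversed Mbp (-0.11), Mog (-0.30), Mag (-0.33), Mobp (-0.25), Ermn (-0.38) and Aspa (-0.36). No filter on low counts reversed Mag (-0.028) and Aspa (-0.0012). Leaving out 1 animal gave ranges of -0.19 to 0.31 for Mog, -0.072 to 0.079 for Mag, -0.066 to 0.34 for Mobp, -0.22 to 0.36 for Ermn and -0.13 to 0.20 for Aspa. In the other classes 1 member was called, 3 with DESeq2, and 1 to 2 when 1 animal was left out. For Mog in excitatory nuclei the value turned to 0.18 without marked doublets, and ranged from -1.07 to 0.35 when 1 animal was left out. The cause of these changes was not tested.

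Oligodendrocyte shares moved in KO-60, control-64 and KO-73 to 7.76, 18.2 and 5.68% with the class set by St18 and Prr5l, and in KO-60 and KO-73 to 7.42 and 6.56% without the filter on detected genes. Genes called in cortex were 216, 546 without the filter on low counts and 104 to 344 with 1 library left out. In Cas against StopCas 320 genes were called, 537 with DESeq2, 543 without the filter and 122 to 444 with 1 library left out. In oligodendrocytes 233 were, 90 to 360 under other settings and 94 to 688 with 1 animal left out, and in excitatory neurons 1147, 1352 to 1712 and 0 to 517.

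Limits: the nuclei come from 2 animals a group, the Cas and StopCas controls are 1 library each, low members in sorted libraries rest on few counts, and the labels of the Flox set go against Trim28.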
